A study of Oryza sativa with 9 samples.

Results

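The genes described here are 32 nuclear rice genes of the light reactions and of carbon fixation, taken from a fixed list of identifiers and not by their measured values. The list holds 4 genes of the Rubisco small subunit, 13 of chlorophyll a/b-binding proteins, 14 of photosystem subunits and 1 of plastocyanin. Of the 32 genes, 31 were rows of the table of 56143 genes, 30 had enough counts to be tested and 27251 genes were tested in all. LOC_Os12g19394, a Rubisco small subunit gene, was not analysed here because it was not a row of the table. LOC_Os09g30340 (OsPsaG) had 0 counts in all 9 samples, which allows up to 3 counts, or 0.0337 to 0.0459 CPM depending on the sample. CPM are counts scaled to the sample's normalized library size. Changes are given as log2 ratios of the fitted levels of 2 groups, each with its standard error (SE).

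The samples were young panicles of 1 cm in the japonica background Nipponbare, in 3 samples of the wild type, 4 of *osmads58* dSpm and 2 of *osmads58* CRISPR. *osmads58* dSpm carries a dSpm transposon in an intron of OsMADS58, a C-class MADS-box gene of floral organ identity, and still makes some of its transcript. *osmads58* CRISPR carries frameshift edits in exon 2 and comes from 2 independent transgenic lines, sampled as pools of panicles from several genotyped plants. These plants were homozygous and completely sterile, a state the study reports for only a part of the CRISPR homozygotes. The study describes *osmads58* dSpm as fertile. The *osmads58* dSpm samples are numbered 1, 2, 4b and 5b, and what the letter b stands for is not given in the sources used here. Plants of the study were grown in paddy fields or in a growth chamber, and the sources do not say which sample grew where. The study's methods count the samples of a group as separate lines, and p-values measure only the spread between these samples.

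In photosynthesis, chlorophyll a/b-binding proteins form the antennae that capture light for photosystem II and photosystem I, and both photosystems pass electrons on to make reducing power. PsbO belongs to the part of photosystem II that oxidizes water. Plastocyanin carries electrons through the thylakoid lumen to photosystem I, where PsaF helps it to dock. PsaN is a small lumenal subunit of photosystem I, PsaE lies on the stromal side, and PsaG and PsaK are membrane subunits at its rim. Rubisco fixes carbon dioxide, and its small subunits are encoded in the nucleus by a multigene family. These genes are known as highly expressed in green leaves, while young panicles hold mostly meristems and floral organs before greening.

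The study designed primer pairs for RT-qPCR of 7 of these genes. By RT-qPCR it reports photosynthetic target genes of OsMADS58 as higher in both mutant lines, and more so in *osmads58* CRISPR. Those measurements are not compared with the counts here. Primers of 4 genes are shown, chosen by what the samples showed for these genes. They are for OsPsaN, which rose in *osmads58* CRISPR, OsPsaK and the plastocyanin gene LOC_Os06g01210, which lay close to the thresholds, and OsPsaG, which had no counts. All are printed 5′ to 3′ as in the study's primer list, and no letter is set apart.
OsPsaN forward: aaggccggcgtgttcgacgag
OsPsaN reverse: ggtcctggcagccggtgaagt
OsPsaK forward: tgacgctgccatcgttgagg
OsPsaK reverse: acagcatcagcgtcgtcgtc
LOC_Os06g01210 forward: ggcgagaccatcacgttcaa
LOC_Os06g01210 reverse: tgaggtactcctcctgcgat
OsPsaG forward: ggcgaagcaggtgccggagc
OsPsaG reverse: cgagggagccccaggcgagg

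The identifiers are those of the MSU v7.0 annotation, in which the digits after Os give the chromosome. The 4 Rubisco small subunit genes all lie on chromosome 12, and 8 of the other genes lie on chromosome 7. Coordinates and transcript lengths were not used here, so levels are compared between samples and never between genes. Of the photosystem genes, 6 carry names in the study's list of chloroplast genes (OsPsaE, OsPsaF, OsPsaG, OsPsaK, OsPsaN and OsPsbO), and the others are given by identifier and class only. Closely similar genes, above all within the Rubisco small subunit and chlorophyll a/b-binding families, may share reads, and how the authors' counting split such reads is not stated.

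Total counts per sample were between 65192657 and 83042245 (median 77715447). OsMADS58 (LOC_Os05g11414) had 8.38, 3.29 and 4.01 CPM in the wild type, 2.1, 0.719, 1.79 and 2 CPM in *osmads58* dSpm and 0.27 and 0.471 CPM in *osmads58* CRISPR. The groups did not overlap. Its log2 ratio was -3.81 in *osmads58* CRISPR (SE 0.67, adjusted p = 0.0153) and -1.66 in *osmads58* dSpm (SE 0.47, adjusted p = 0.118), both by the quasi-likelihood test of edgeR. A list of 8 floral organ MADS-box genes summed to 1430, 540 and 529.3 CPM in the wild type, 773.1, 380.1, 1104 and 1071 CPM in *osmads58* dSpm and 308.4 and 380.2 CPM in *osmads58* CRISPR, with all 8 genes detected. Wild type 1 thus stood apart from the other wild-type samples, and both *osmads58* CRISPR samples were below every wild-type sample. A list of 9 genes of green leaves, some of them also in the list of related genes below, summed to between 205.7 and 293.7 CPM in all samples. This sum is carried by LOC_Os03g52840 (111 to 180 CPM) and LOC_Os01g51410 (47.5 to 123 CPM). In *osmads58* CRISPR the log2 ratios of the list ran from -1.30 in LOC_Os03g57220 to 3.16 in LOC_Os04g38600, with a median of 0.02. None of the 9 was called by edgeR in any comparison. DESeq2 called 1 higher in *osmads58* CRISPR, 1 lower between the lines and 2 higher in *osmads58* dSpm 4b and 5b against 1 and 2. The shares of all genes called by DESeq2 are given with each comparison below. These lists were drawn up from general knowledge of the genes.

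Against the wild type, *osmads58* CRISPR had higher transcript levels of 4 antenna genes and of 2 photosystem genes, LOC_Os08g44680 and the photosystem I subunit OsPsaN. A gene was called when edgeR's quasi-likelihood test gave it a p under 0.05 after Benjamini-Hochberg adjustment over all tested genes and when its log2 ratio was beyond 1 in either direction. Of the 30 genes tested, 6 were called higher and 1 was called lower. Over all genes tested, 2.04% were called higher and 3.51% lower, so that the 1 lower call was no more than the background share. The 6 that rose are 4 of the 13 chlorophyll a/b-binding genes and 2 of the 13 photosystem genes tested, and none of the 3 Rubisco genes tested was called. The median log2 ratio was 0.37 over the 30 genes and 0.00 over all genes tested. It was 0.62 in the chlorophyll a/b-binding class, 0.34 among photosystem subunits and -0.16 among Rubisco small subunits.

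**Figure D1:**
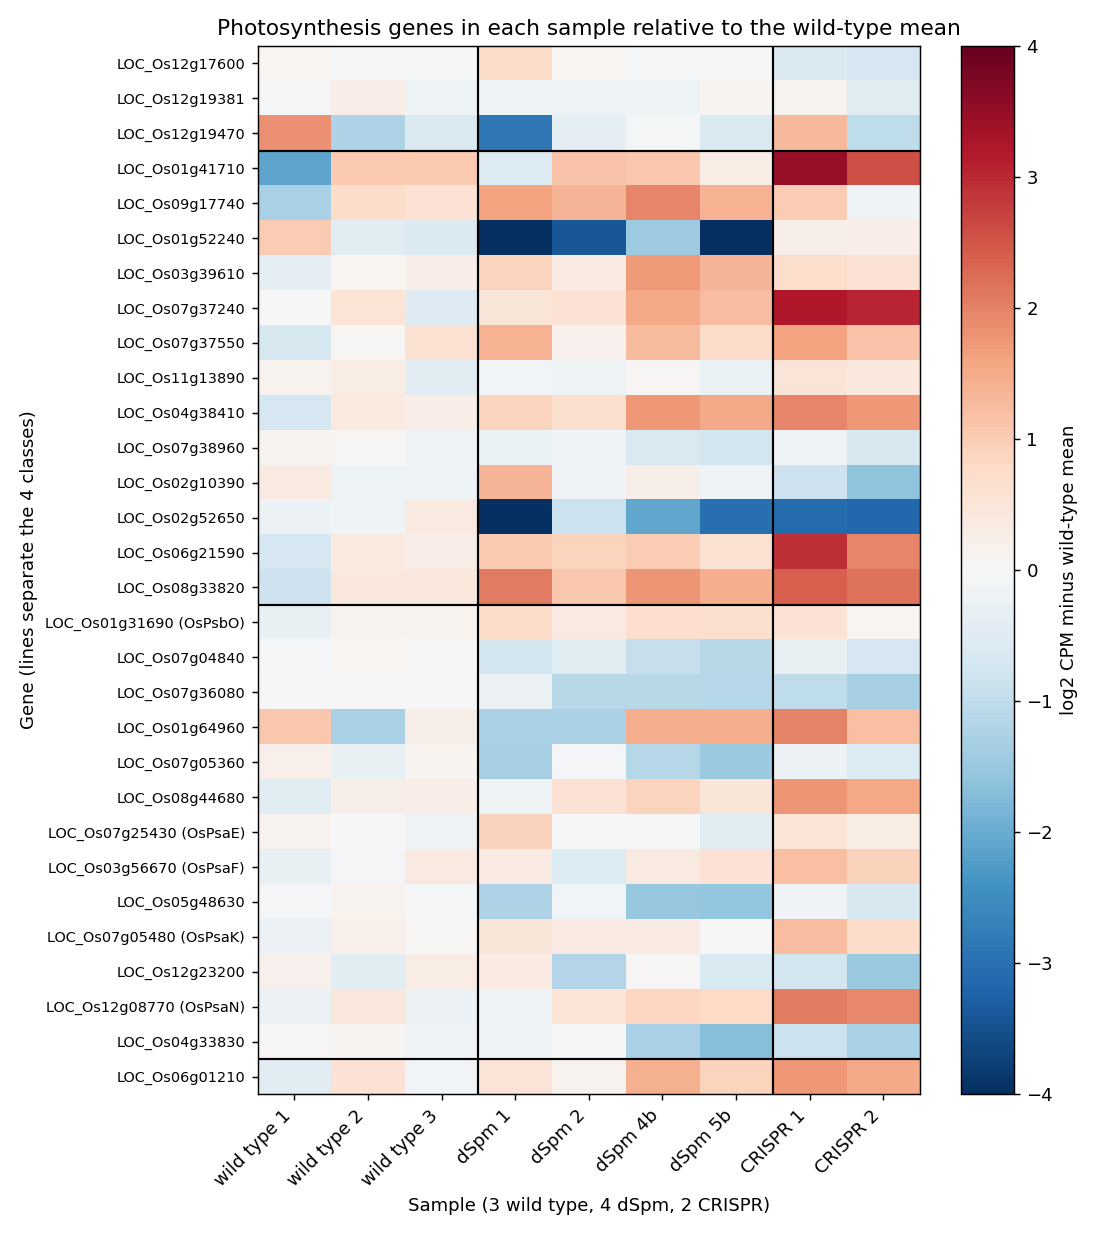
Heat map of the 30 tested genes (rows) in the 9 samples (columns), with colour for log2 CPM minus the wild-type mean and lines between the classes, from top to bottom Rubisco small subunit, chlorophyll a/b-binding protein, photosystem subunit and plastocyanin. Colours stop at 4 in each direction, and red rows such as LOC_Os07g37240 stand beside blue rows such as LOC_Os07g36080 in the 2 *osmads58* CRISPR columns.

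The chlorophyll a/b-binding gene LOC_Os07g37240 had the largest called change. It was measured at 0.796, 1.2 and 0.561 CPM in the wild type, 1.14, 1.22, 2.36 and 1.93 CPM in *osmads58* dSpm and 7.76 and 6.91 CPM in *osmads58* CRISPR. Both *osmads58* CRISPR samples were far above the other 7 samples, whose groups overlapped each other. The log2 ratio was 3.11 (SE 0.45, adjusted p = 0.00784), an 8.61-fold rise.

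LOC_Os06g21590, of the same class, had 1.65, 3.48 and 3.2 CPM in the wild type, 5.51, 4.95, 5.33 and 4.05 CPM in *osmads58* dSpm and 20 and 10.4 CPM in *osmads58* CRISPR. Each group lay wholly above the one before it, and the 2 *osmads58* CRISPR samples differed from each other by more than the range of *osmads58* dSpm. The log2 ratio in *osmads58* CRISPR was 2.45 (SE 0.38, adjusted p = 0.0104).

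LOC_Os08g33820, also an antenna gene, had 1.32, 3.12 and 3.12 CPM in the wild type, 10, 4.94, 8 and 6.51 CPM in *osmads58* dSpm and 12.3 and 10.6 CPM in *osmads58* CRISPR. No group overlapped another, although *osmads58* dSpm 1 came within a short distance of *osmads58* CRISPR. The log2 ratio was 2.19 in *osmads58* CRISPR (SE 0.41, adjusted p = 0.0191) and 1.55 in *osmads58* dSpm (SE 0.36, adjusted p = 0.0726).

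LOC_Os04g38410, the fourth called antenna gene, had 2.33, 4.84 and 4.48 CPM in the wild type, 6.91, 5.79, 12.3 and 10.5 CPM in *osmads58* dSpm and 14.3 and 12.5 CPM in *osmads58* CRISPR. The samples 4b and 5b were the highest of *osmads58* dSpm and nearly reached *osmads58* CRISPR. The log2 ratio was 1.79 in *osmads58* CRISPR (SE 0.40, adjusted p = 0.0307) and 1.19 in *osmads58* dSpm (SE 0.35, adjusted p = 0.129).

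Among photosystem genes, OsPsaN (LOC_Os12g08770) had 0.988, 1.61 and 0.994 CPM in the wild type, 1.03, 1.71, 2.16 and 2.03 CPM in *osmads58* dSpm and 4.91 and 4.46 CPM in *osmads58* CRISPR. The *osmads58* CRISPR samples were above all others, and the wild-type and *osmads58* dSpm samples overlapped. In *osmads58* CRISPR the log2 ratio to the wild type was 1.96 (SE 0.42, adjusted p = 0.0266). LOC_Os08g44680, whose subunit is not named in the sources used here, had 5.1, 8.4 and 8.7 CPM in the wild type, 6.33, 10.8, 13.5 and 10.1 CPM in *osmads58* dSpm and 24.5 and 21 CPM in *osmads58* CRISPR. In *osmads58* CRISPR the log2 ratio to the wild type was 1.62 (SE 0.34, adjusted p = 0.0252).

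The photosystem subunit gene LOC_Os07g36080 was the only one of the 30 called lower in *osmads58* CRISPR. It had 106, 107 and 110 CPM in the wild type, 90.7, 50.4, 49.9 and 48.6 CPM in *osmads58* dSpm and 53.3 and 42.8 CPM in *osmads58* CRISPR. All mutant samples were below all wild-type samples, and *osmads58* dSpm 1 stood nearest to the wild type. The log2 ratio was -1.16 in *osmads58* CRISPR (SE 0.29, adjusted p = 0.041) and -0.85 in *osmads58* dSpm (SE 0.23, adjusted p = 0.107).

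**Figure D2:**
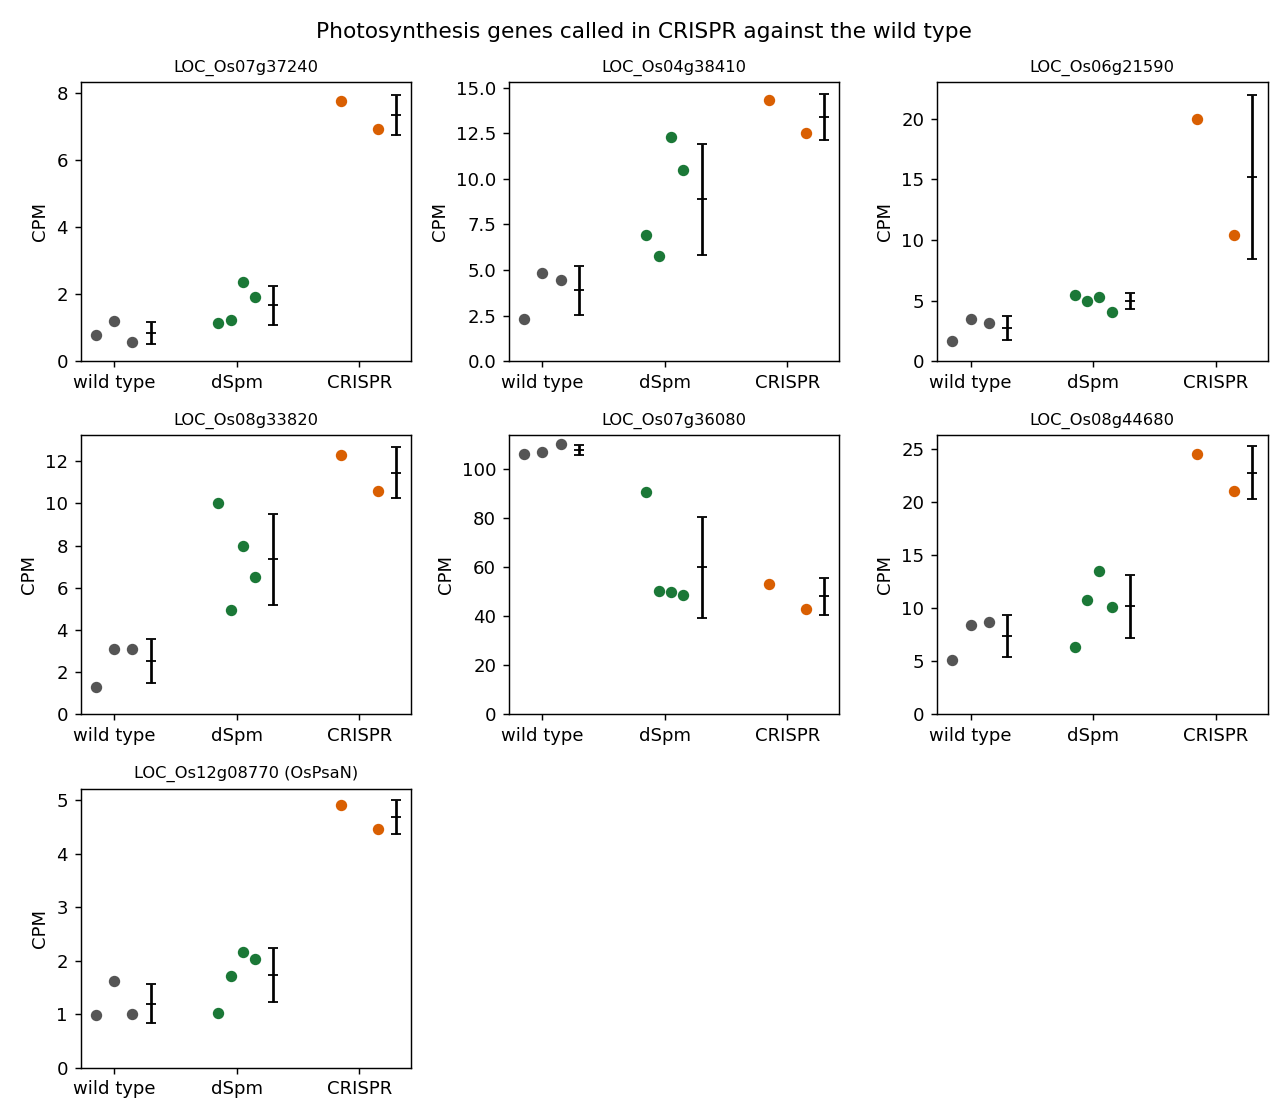
CPM (vertical axes, starting at 0) of the 7 genes called in *osmads58* CRISPR against the wild type, with a point per sample, grey for wild type, green for *osmads58* dSpm and orange for *osmads58* CRISPR, and the group mean with its SD at the right of each group. In 6 panels the 2 orange points are the highest, and in the panel of LOC_Os07g36080 the wild type is highest with 106 to 110 CPM.

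The calls in *osmads58* CRISPR rest on both samples of that line and on the size of the wild-type group. Without *osmads58* CRISPR 1 or without *osmads58* CRISPR 2, none of the 30 genes was called in either direction. Leaving out wild type 1, wild type 2 or wild type 3 left 3, 4 and 3 genes called higher and 0 called lower. These counts are not set against the share of all genes called in the same fits. LOC_Os07g37240, LOC_Os06g21590 and LOC_Os08g33820 remained called without any one of the 7 samples outside *osmads58* CRISPR. Wild type 1 was clearly the lowest wild-type sample for LOC_Os06g21590, LOC_Os08g33820, LOC_Os04g38410 and LOC_Os08g44680. Without it the log2 ratio was 2.18 for LOC_Os06g21590, 1.88 for LOC_Os08g33820 and 3.06 for LOC_Os07g37240, so part of the first 2 rises rests on that sample. The call of LOC_Os07g36080 was also lost without *osmads58* dSpm 4b or 5b, and without *osmads58* dSpm 1 there were 3 genes called lower. That count, too, is not set against the share of all genes called in the same fit. With DESeq2, 10 genes were called higher and 2 lower, against 3.98% and 5.54% of all genes, so that the lower calls were near the background share.

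Plastocyanin, the soluble electron carrier, and the photosystem I genes OsPsaE, OsPsaF and OsPsaK had positive log2 ratios in *osmads58* CRISPR without a call. OsPsaK (LOC_Os07g05480) had 6.08, 8.23 and 7.47 CPM in the wild type, 10.1, 9.1, 8.98 and 7.13 CPM in *osmads58* dSpm and 16.9 and 12 CPM in *osmads58* CRISPR. Its adjusted p in *osmads58* CRISPR was 0.0463, and its log2 ratio of 0.99 (SE 0.25) was just under the threshold. The plastocyanin gene LOC_Os06g01210 had 1.15, 2.42 and 1.48 CPM in the wild type, 2.28, 1.77, 4.37 and 3.02 CPM in *osmads58* dSpm and 5.45 and 4.6 CPM in *osmads58* CRISPR. Its log2 ratio was 1.58 (SE 0.45, adjusted p = 0.0654), with both *osmads58* CRISPR samples above all others. OsPsaF (LOC_Os03g56670) had a log2 ratio of 1.05 (SE 0.35, adjusted p = 0.0994), from 3.9 to 6.2 CPM in the wild type to 9.14 and 11.2 CPM in *osmads58* CRISPR. OsPsaE (LOC_Os07g25430) was at 15.9 to 19.3 CPM in the wild type and 21.6 and 24.8 CPM in *osmads58* CRISPR, with a log2 ratio of 0.40 (adjusted p = 0.512). OsPsbO (LOC_Os01g31690), the 1 named gene of photosystem II, overlapped between these groups, with 26.3 to 35.9 CPM in the wild type and 33.9 and 48.5 CPM in *osmads58* CRISPR.

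In the antenna class, 10 of 13 genes had a positive and 3 a negative log2 ratio in *osmads58* CRISPR, and 9 of the 13 were not called. LOC_Os01g41710 had 0.22, 2.18 and 2.17 CPM in the wild type, 0.699, 2.32, 2.21 and 1.28 CPM in *osmads58* dSpm and 11.8 and 6.26 CPM in *osmads58* CRISPR, a log2 ratio of 2.56 (SE 0.82, adjusted p = 0.0881) with wild type 1 far below the other wild-type samples. LOC_Os02g10390 had 24.3, 16.5 and 16.9 CPM in the wild type, 48.5, 17.2, 22.4 and 16.8 CPM in *osmads58* dSpm and 10.6 and 6.17 CPM in *osmads58* CRISPR. In *osmads58* CRISPR the log2 ratio to the wild type was -1.20 (SE 0.49, adjusted p = 0.159). The lowest fold change of the class was that of LOC_Os02g52650, at few counts. It had 68, 75 and 112 counts in the wild type, 0, 39, 19 and 9 counts in *osmads58* dSpm and 8 and 9 counts in *osmads58* CRISPR, a log2 ratio of -3.41 in *osmads58* CRISPR (SE 1.5, adjusted p = 0.189). Both mutant groups were below the wild type in every sample. LOC_Os11g13890, with 18.4 to 30.2 CPM in the wild type and 33.3 and 35.7 CPM in *osmads58* CRISPR, and LOC_Os07g38960, with 22.7 to 26.7 CPM and 15.8 and 22.6 CPM, differed by less than 0.45 on the log2 scale.

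**Figure D3:**
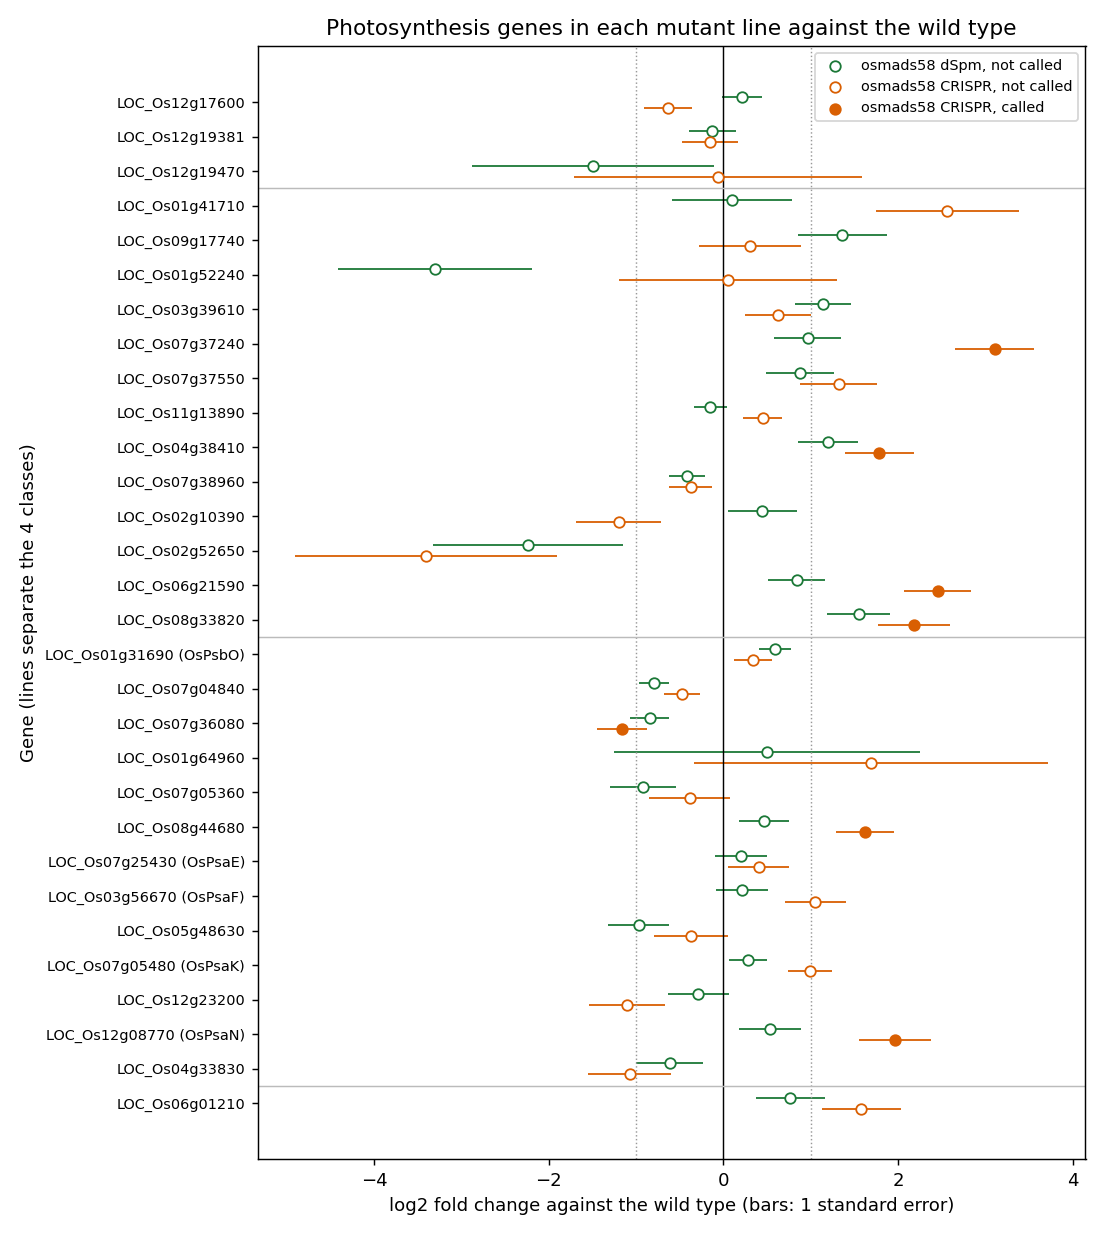
Log2 ratio against the wild type (horizontal axis) of each of the 30 tested genes in *osmads58* dSpm (green) and *osmads58* CRISPR (orange), with bars of 1 SE, dotted lines at the threshold of 1 in each direction and filled points for called genes. The 7 filled points are all of *osmads58* CRISPR, from LOC_Os07g36080 at -1.16 to LOC_Os07g37240 at 3.11.

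The photosystem subunit class was divided in *osmads58* CRISPR, with 7 of its 13 tested genes at a positive and 6 at a negative log2 ratio. LOC_Os07g04840 had 74.9, 82.9 and 80.6 CPM in the wild type and 64.1 and 50.3 CPM in *osmads58* CRISPR. LOC_Os12g23200 had 104, 67.5 and 114 CPM in the wild type, 116, 41.6, 95.1 and 60.3 CPM in *osmads58* dSpm and 55.7 and 33.2 CPM in *osmads58* CRISPR. In both genes the *osmads58* CRISPR samples were below the wild type, with adjusted p of 0.184 and 0.151. LOC_Os07g05360 and LOC_Os05g48630 were at -0.39 and -0.37 on the log2 scale, with adjusted p of 0.651 and 0.634. LOC_Os01g64960 had no more than 17 counts in any sample, and no difference was detectable at this depth.

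None of the Rubisco small subunit genes was called in *osmads58* CRISPR, and the 3 tested had log2 ratios between -0.63 and -0.06. LOC_Os12g17600 had 10.6, 9.57 and 9.66 CPM in the wild type, 16.4, 10.4, 9.6 and 9.75 CPM in *osmads58* dSpm and 6.58 and 6.24 CPM in *osmads58* CRISPR. The *osmads58* CRISPR samples were below all others, with a log2 ratio of -0.63 (SE 0.28, adjusted p = 0.188). LOC_Os12g19381 was at 2.85 to 3.98 CPM in the wild type, 2.84 to 3.56 CPM in *osmads58* dSpm and 2.37 and 3.6 CPM in *osmads58* CRISPR, so that all groups overlapped. LOC_Os12g19470 had 47, 4 and 8 counts in the wild type, 0, 8, 12 and 8 counts in *osmads58* dSpm and 33 and 6 counts in *osmads58* CRISPR. Its log2 ratio of -1.49 in *osmads58* dSpm (SE 1.39, adjusted p = 0.656) rests on wild type 1 and was 0.26 without that sample.

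Counting genes whose groups did not overlap, 15 of the 30 were higher in both *osmads58* CRISPR samples than in every wild-type sample and 9 were lower. Over all tested genes 29.0% were higher and 25.6% lower in this way, so that the count of higher genes was above the background share and the count of lower genes was near it. Without adjustment, 11 genes had p under 0.05 at a positive and 7 at a negative fold change, while 25.7% of all genes had such a p in either direction. In bulk samples, fewer cells of a type and less RNA per cell cannot be told apart. The floral MADS-box list summed to 308.4 and 380.2 CPM in the *osmads58* CRISPR samples, to 380.1 to 1104 CPM in *osmads58* dSpm and to 529.3 to 1430 CPM in the wild type. Its part in these differences was not tested.

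In *osmads58* dSpm, none of the 30 genes was called by edgeR's quasi-likelihood test, at a background of 1.18% of all tested genes called higher and 0.268% called lower. Without adjustment 8 genes had p under 0.05 at a positive and 5 at a negative fold change, while 16.6% of all genes had such a p in either direction. DESeq2 called 3 higher and 1 lower, against 2.98% and 0.998% of all genes. The median log2 ratio was 0.21 over the 30 genes and 0.06 over all genes tested. It was 0.84 in the chlorophyll a/b-binding class, where 9 of 13 genes were positive, and 0.20 among photosystem subunits. Of the 30 genes, 6 were higher and 5 were lower in every *osmads58* dSpm sample than in every wild-type sample, against 8.69% and 6.43% of all tested genes, so that both counts were above the background share. Since both mutant lines were compared with the same 3 wild-type samples, their fold changes are not independent of each other.

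In the antenna genes LOC_Os09g17740 and LOC_Os01g52240, *osmads58* dSpm was the outermost group. Every sample of it lay above all others in the first gene and below all others in the second, without a call in either comparison. How many of all tested genes do so was not counted. LOC_Os09g17740 had 0.508, 2.15 and 1.94 CPM in the wild type, 3.95, 3.36, 5.03 and 3.4 CPM in *osmads58* dSpm and 2.61 and 1.17 CPM in *osmads58* CRISPR. All *osmads58* dSpm samples were above all others, with a log2 ratio of 1.36 against the wild type (SE 0.51, adjusted p = 0.221). Between *osmads58* CRISPR and *osmads58* dSpm it was -1.06 (adjusted p = 0.305). LOC_Os01g52240 had 332, 120 and 116 counts in the wild type, 4, 12, 62 and 0 counts in *osmads58* dSpm and 192 and 240 counts in *osmads58* CRISPR. In *osmads58* dSpm the log2 ratio to the wild type was -3.30 (SE 1.11, adjusted p = 0.183), the lowest of the 30 genes in this line, and between the lines it was 3.35 (adjusted p = 0.123). LOC_Os03g39610 had 5.04, 6.86 and 7.75 CPM in the wild type, 12.1, 8.04, 21.1 and 16.5 CPM in *osmads58* dSpm and 10.6 and 9.57 CPM in *osmads58* CRISPR, with a log2 ratio of 1.14 in *osmads58* dSpm (SE 0.33, adjusted p = 0.124). Its *osmads58* dSpm samples were above the wild type and overlapped *osmads58* CRISPR. The lowest wild-type value of LOC_Os09g17740 and of LOC_Os03g39610 was in wild type 1, as it was for several genes called higher in *osmads58* CRISPR.

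The photosystem gene nearest to a call in *osmads58* dSpm was LOC_Os07g04840. Its levels were 48, 56.3, 42.1 and 37 CPM there, against 74.9 to 82.9 CPM in the wild type, with a log2 ratio of -0.79 (SE 0.17, adjusted p = 0.0528). Its fold change also lay inside the threshold of 1. LOC_Os05g48630 had the lowest photosystem fold change in this line, with 25.9, 29.7 and 26 CPM in the wild type and 11.5, 25.3, 9.45 and 9.28 CPM in *osmads58* dSpm. The sample *osmads58* dSpm 2 was close to the wild type and the other 3 were far below it, which left the log2 ratio at -0.97 (SE 0.35, adjusted p = 0.205). OsPsbO, of the water-oxidizing part of photosystem II, was at 41.4 to 53.7 CPM in *osmads58* dSpm and above every wild-type sample, with a log2 ratio of 0.59 (SE 0.19, adjusted p = 0.158).

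**Figure D4:**
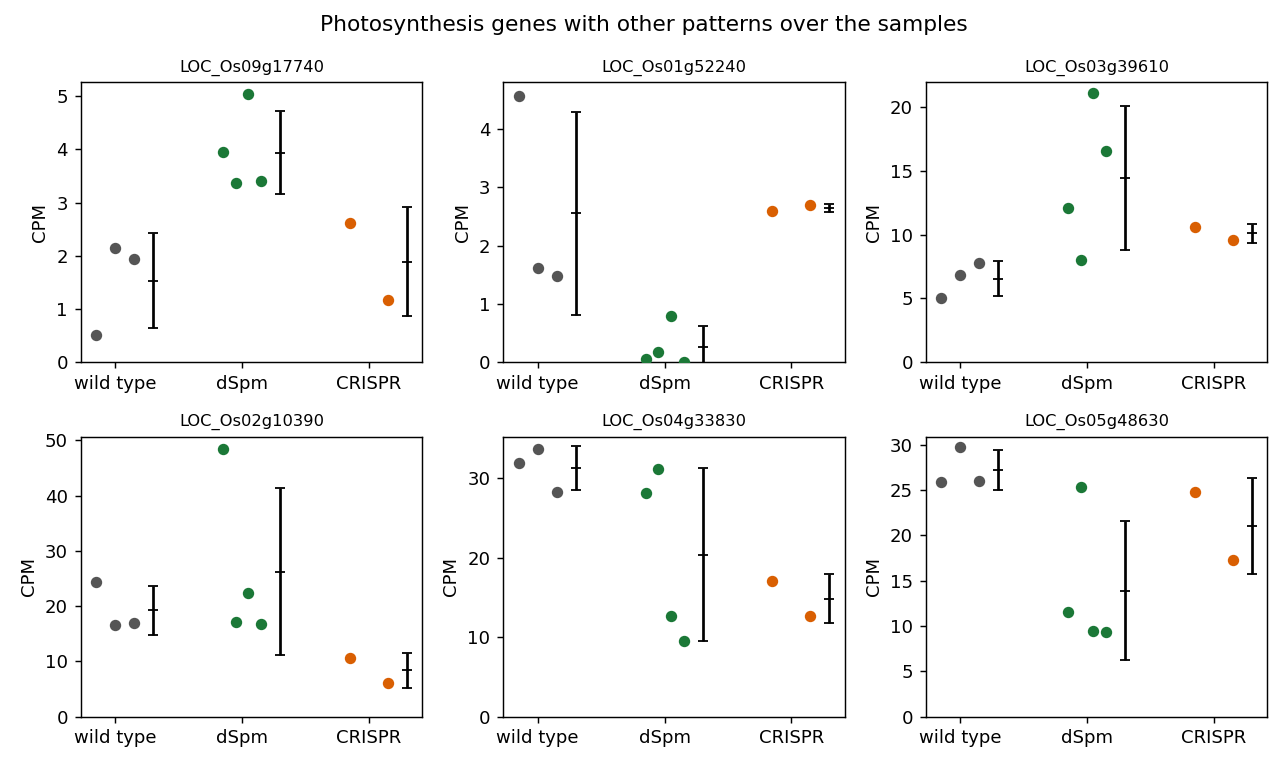
CPM (vertical axes, starting at 0) of 6 genes with other patterns, with a point per sample in the colours grey for wild type, green for *osmads58* dSpm and orange for *osmads58* CRISPR, and the group mean with its SD at the right of each group (bars that would pass below 0 end there). LOC_Os09g17740 is highest and LOC_Os01g52240 lowest in *osmads58* dSpm, and LOC_Os04g33830 and LOC_Os05g48630 split the 4 *osmads58* dSpm samples in different ways.

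The absence of calls in *osmads58* dSpm depended on which of its samples were used. With the samples 4b and 5b alone, 4 genes were called higher (LOC_Os03g39610, LOC_Os04g38410, LOC_Os08g33820 and LOC_Os07g37240, all of the antenna class) and 6 were called lower. The 6 lower genes were the photosystem genes LOC_Os05g48630, LOC_Os07g04840, LOC_Os07g36080, LOC_Os07g05360 and LOC_Os04g33830 and the antenna gene LOC_Os02g52650. In the same fit 4.54% of all genes were called higher and 4.74% lower. With the samples 1 and 2 alone, none was called in either direction, against 0.358% and 0.0566% of all genes called higher and lower. Leaving out *osmads58* dSpm 2 gave 2 genes called higher and 2 called lower, against 1.49% and 1.67% of all genes. Leaving out *osmads58* dSpm 1 gave 0 higher and 1 lower, against 1.84% and 0.451% of all genes.

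The samples 4b and 5b were also compared directly with the samples 1 and 2 of *osmads58* dSpm, in a fit with 4 groups. Of the 30 genes, none was called higher and 1 lower, and over all tested genes 0.870% were called higher and 1.34% lower. The called gene was LOC_Os04g33830, of a photosystem subunit, with 12.7 and 9.46 CPM in 4b and 5b and 28.1 and 31.2 CPM in 1 and 2. Its log2 ratio was -1.42 (SE 0.22, adjusted p = 0.0218). The samples 1 and 2 were within reach of the wild type, at 31.9, 33.6 and 28.2 CPM, and the samples 4b and 5b were nearer to *osmads58* CRISPR, at 17 and 12.7 CPM. This call was lost without *osmads58* dSpm 4b or without 5b, where 1 sample was left in that group. Without *osmads58* dSpm 1 its log2 ratio was -1.49 and without *osmads58* dSpm 2 it was -1.34, again with 1 sample left in a group. Without adjustment 3 genes had p under 0.05 at a positive and 5 at a negative fold change, near the 21.2% of all genes with such a p in either direction. DESeq2 called 0 higher and 1 lower, against 2.93% and 3.3% of all genes. A list of 6 meiotic genes summed to 581.4 and 605.1 CPM in 4b and 5b and to 247.3 and 296.5 CPM in 1 and 2. Most of this gap lay in LOC_Os03g58600, with 272 and 295 CPM in 4b and 5b and 48.2 and 54 CPM in 1 and 2. LOC_Os12g04980 went the other way, with 2.39 and 2.32 CPM against 8.16 and 4.85 CPM. The median log2 ratio of the list was 0.55, and its part in the difference was not tested.

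The difference between the mutant lines was tested directly. In *osmads58* CRISPR against *osmads58* dSpm, 2 of the 30 genes were called higher and 0 lower, while 1.44% of all tested genes were called higher and 3.93% lower. Both are antenna genes that were also called against the wild type. LOC_Os07g37240 was higher in *osmads58* CRISPR by 2.14 on the log2 scale (SE 0.40, adjusted p = 0.0156) and LOC_Os06g21590 by 1.61 (SE 0.35, adjusted p = 0.027). OsPsaN and LOC_Os08g44680 missed the threshold, with log2 ratios of 1.43 and 1.16 and adjusted p of 0.0537 and 0.0551. LOC_Os08g33820 and LOC_Os04g38410 were called against the wild type in *osmads58* CRISPR and not in *osmads58* dSpm by edgeR with all samples, and in both lines by DESeq2. They differed between the lines by 0.64 and 0.59 with adjusted p of 0.349 and 0.368, so a difference between the lines was not shown for them.

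Both *osmads58* CRISPR samples lay above every *osmads58* dSpm sample for 12 of the 30 genes and below every one for 3, against 19.7% and 20.7% of all tested genes. Among the 3 lower genes were LOC_Os12g17600 of the Rubisco small subunit, at -0.85 on the log2 scale (SE 0.27, adjusted p = 0.0916), and LOC_Os02g10390, at -1.65 (SE 0.48, adjusted p = 0.0718). The median log2 ratio was 0.56 over the 30 genes and -0.05 over all genes tested. Without adjustment 9 genes had p under 0.05 at a positive and 2 at a negative fold change, while 23.7% of all genes had such a p in either direction. DESeq2 called 6 higher and 1 lower, against 2.46% and 5.98% of all genes. Neither call held without *osmads58* CRISPR 1 or without *osmads58* CRISPR 2. There were 4 genes called higher without wild type 1 or without *osmads58* dSpm 4b, 1 without *osmads58* dSpm 5b, and 1 called lower without *osmads58* dSpm 1. Counts with a sample left out are not set against the share of all genes called in the same fits.

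Summed over the class, the antenna genes and the photosystem genes gave different pictures. The 13 chlorophyll a/b-binding genes summed to 97.55, 101.5 and 88.29 CPM in the wild type, 140.1, 96.08, 128.2 and 101.3 CPM in *osmads58* dSpm and 159.6 and 121.5 CPM in *osmads58* CRISPR. The *osmads58* CRISPR samples were above the wild type, and *osmads58* dSpm spanned from below the highest wild-type sample to above *osmads58* CRISPR 2. In the wild type this antenna sum is carried by LOC_Os11g13890, LOC_Os07g38960 and LOC_Os02g10390, none of them among the called antenna genes. LOC_Os02g10390 had 48.5 CPM in *osmads58* dSpm 1, against 16.8 to 22.4 CPM in the other samples of that line. The 14 photosystem genes summed to 408.9, 400.5 and 438.2 CPM in the wild type, 406.2, 292, 310.5 and 255.8 CPM in *osmads58* dSpm and 349.3 and 261.2 CPM in *osmads58* CRISPR. All mutant samples but *osmads58* dSpm 1 were below the wild type. This sum is carried by the genes with most counts, LOC_Os07g36080, LOC_Os07g04840 and LOC_Os12g23200, and not by OsPsaN or LOC_Os08g44680. The sum over all genes of the set was 522, 518 and 540.6 CPM in the wild type, 373.5 to 568 CPM in *osmads58* dSpm and 525 and 396 CPM in *osmads58* CRISPR, and all groups overlapped.

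**Figure D5:**
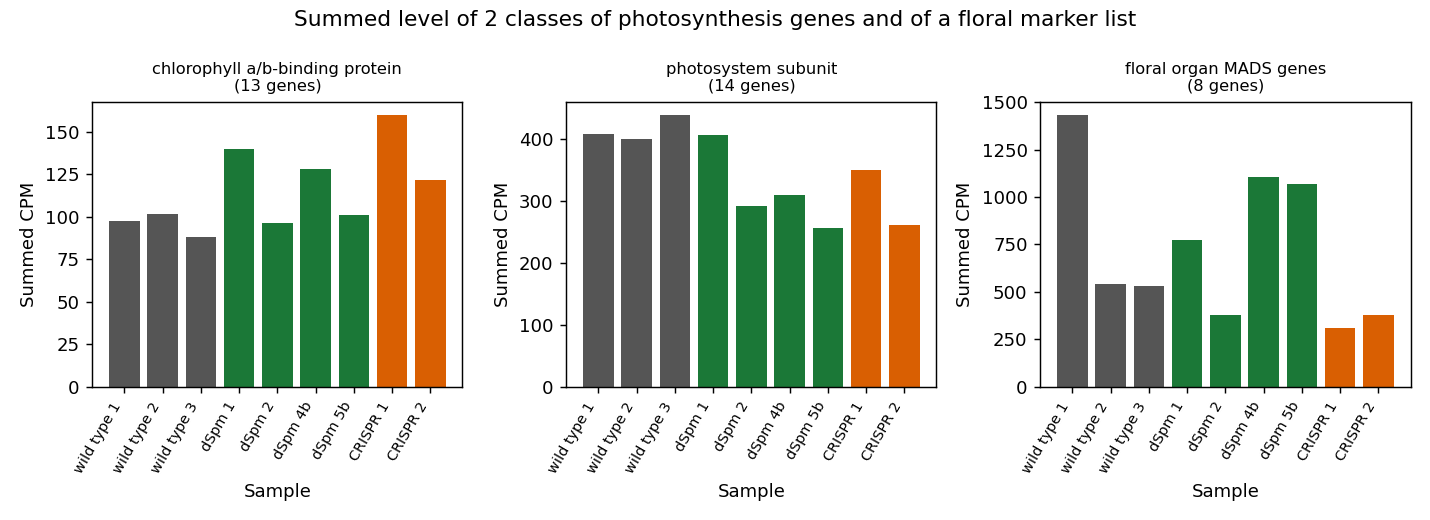
Summed CPM per sample (bars from 0) of the chlorophyll a/b-binding genes, of the photosystem subunit genes and of the list of 8 floral organ MADS-box genes, with grey bars for wild type, green for *osmads58* dSpm and orange for *osmads58* CRISPR. The antenna sum is highest in *osmads58* CRISPR 1 at 159.6 CPM, the photosystem sum in wild type 3 at 438.2 CPM and the floral sum in wild type 1 at 1430 CPM.

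Each gene counts the same in the mean over genes of log2 CPM minus its wild-type mean. That mean was 0.753 in *osmads58* CRISPR 1 and 0.28 in *osmads58* CRISPR 2, -0.192, -0.063, 0.26 and -0.192 in *osmads58* dSpm 1, 2, 4b and 5b, and between -0.132 and 0.068 in the wild type. The 2 *osmads58* CRISPR samples thus differed from each other by more than the wild-type samples did, and the *osmads58* dSpm samples spread nearly as widely. Each CRISPR line had 1 sample, so a difference between those lines was not tested.

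Other photosynthesis genes, outside the 32, were taken from a list of 22, of which 21 were tested. By edgeR's quasi-likelihood test none was called in *osmads58* dSpm, in *osmads58* CRISPR or between the lines. In *osmads58* CRISPR 13 of the 21 were at a positive log2 ratio and 8 at a negative one, with a median of 0.38. Before adjustment 5 had p under 0.05 at a positive and 2 at a negative fold change, against 25.7% of all genes in either direction. In *osmads58* dSpm the median was 0.41, and 2 had p under 0.05 without adjustment, both positive, against 16.6% of all genes in either direction. Between the lines the median was 0.47, with 3 positive and 4 negative genes under 0.05 without adjustment, against 23.7% of all genes in either direction. DESeq2 called 2 genes of the list higher and 1 lower in *osmads58* CRISPR, none in *osmads58* dSpm, and 1 higher and 2 lower between the lines. The shares of all genes called by DESeq2 in these comparisons are those given above. OsPsbR (LOC_Os08g10020), a further photosystem II subunit, had 1.41, 4.53 and 3.92 CPM in the wild type, 3.64 to 6.44 CPM in *osmads58* dSpm and 7.6 and 7.98 CPM in *osmads58* CRISPR, where the log2 ratio was 1.24 (SE 0.47, adjusted p = 0.132). OsAtpC (LOC_Os07g32880) and OsAtpD (LOC_Os02g51470), subunits of the chloroplast ATP synthase, had log2 ratios of 0.94 and -0.18 in *osmads58* CRISPR, with adjusted p of 0.162 and 0.628.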

How the data were processed

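RNA of young panicles was sequenced for 9 samples on Illumina from strand-specific libraries. Per the labels and the study's methods, the authors mapped reads to MSU v7.0 with HISAT2 2.1.0 and estimated gene levels with StringTie 1.3.3b. The values the authors deposited are estimated counts per gene, already whole numbers, so rounding changed none. How coverage became counts is not stated in the sources used here. Among counts from 1 to 40, 37.2% to 40.7% per sample were multiples of 4, against 25% if evenly spread, so that a count may carry less information than its size and limits at 0 cover counting error only.

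The quasi-likelihood test of edgeR 4.0.16 in R 4.3.3 was run on the counts (TMM, filterByExpr by group, glmQLFit and glmQLFTest), in 1 fit of 9 samples in 3 groups. A fit with 4 groups compared *osmads58* dSpm 4b and 5b with 1 and 2. Calls needed a Benjamini-Hochberg adjusted p under 0.05 over all 27251 tested genes and an absolute log2 ratio over 1. A standard error is the log2 ratio divided by the square root of F. log2 CPM used a prior count of 2. The code was tested on simulated data. Alternatives were DESeq2 1.42.0, RLE factors, no filter, no fold threshold, counts divided by 4, only the compared groups, a replicate block, parts of *osmads58* dSpm, samples left out in turn, and wild type 1 left out with *osmads58* dSpm 1.

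The members and lists were chosen with earlier results of these data known. Named are genes called between lines and, per class and line, the tested gene with the largest absolute fold change. The rule planned 6 classes, merged here to 4, because the sources used here give no names that divide them. Others described singly were chosen after their values were seen. *osmads58* dSpm samples were identified by their titles. The table of gene names at hand matched no identifier of the set.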

Additional observations from a re-analysis of the deposited data

Results flagged for a closer look

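Within the 4 *osmads58* dSpm samples, the highest or lowest CPM was far from the other 3 for 5 of the 30 tested genes, by Dixon's criterion at 95%, where chance gives about 1 in 20, or 1.5. LOC_Os12g17600 stood at 16.4 CPM and LOC_Os07g36080 at 90.7 CPM in *osmads58* dSpm 1. LOC_Os07g05360 stood at 3.78 CPM and LOC_Os05g48630 at 25.3 CPM in *osmads58* dSpm 2, both the highest of the group. LOC_Os12g19381 stood at 3.56 CPM in *osmads58* dSpm 5b. In each of the 5 genes the sample that stood apart was the highest of its group.

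The responses of the mutant lines differed by a direct test for 2 genes, both of chlorophyll a/b-binding proteins. LOC_Os07g37240 was higher in *osmads58* CRISPR than in *osmads58* dSpm by 2.14 on the log2 scale, in 2 of 2 samples against all 4. LOC_Os06g21590 was higher by 1.61, also in 2 of 2 samples.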

How the results depend on the processing

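Counts of called genes are given as higher and lower. The share of all genes called moves with the setting too. In *osmads58* dSpm, 4.54% of all genes were called higher with 4b and 5b only. That share was 0.023% with the samples numbered 1 and 2 and no block. A change in the counts below is therefore not by itself a change particular to these genes. In *osmads58* CRISPR against the wild type (6 and 1) they were 10 and 2 with DESeq2, 8 and 4 with only the groups compared, 6 and 2 with *osmads58* dSpm 1 and 2 only, 9 and 5 with 4b and 5b only, and 7 and 2 without wild type 1 and *osmads58* dSpm 1 together. In *osmads58* dSpm (0 and 0) they were 3 and 1 with DESeq2, 4 and 6 with 4b and 5b only, and 0 and 1 without wild type 1 and *osmads58* dSpm 1. Between the lines (2 and 0) they were 6 and 1 with DESeq2, 4 and 0 with counts divided by 4, 3 and 0 with only the groups compared, 3 and 1 with 4b and 5b only, and 4 and 1 without wild type 1 and *osmads58* dSpm 1. RLE factors and no filter on low counts gave the main counts. Leaving out 1 sample in turn gave 0 to 8 higher and 0 to 3 lower in *osmads58* CRISPR. It gave 0 to 2 higher and 0 to 2 lower in *osmads58* dSpm, 0 to 4 and 0 to 1 between the lines, and 0 to 1 and 0 to 2 for 4b and 5b against 1 and 2. None of the 7 genes called in *osmads58* CRISPR changed sign there under any of these alternatives, while several genes that were not called did. Among the genes chosen by rule, LOC_Os12g19470 changed sign in *osmads58* dSpm, from -1.49 to 0.67 without wild type 1 and *osmads58* dSpm 1 and to 0.26 without wild type 1. With 1 sample left out it ranged from -1.97 to 0.26. Where a change is given, the cause was not tested.

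The samples shared only numbers: their deviations correlated at 0.313 and 0.127 between the wild type and *osmads58* dSpm, and at -0.064 to 0.014 with *osmads58* CRISPR. With the number as a block on the samples numbered 1 and 2, 6 genes were called higher and 3 lower in *osmads58* CRISPR. None was called in *osmads58* dSpm, and between the lines 3 were called higher and 2 lower. Under the block OsPsaN was not called and LOC_Os01g41710 was called in *osmads58* CRISPR, and between the lines LOC_Os06g21590 was not called. The same samples without the block gave 1 and 0, 0 and 0, and 2 and 0. In *osmads58* dSpm, 0.321% of all genes were called higher with the block and 0.023% without it. For the other comparisons the counts are not set against the share of all genes called in the same fits. The change in counts is therefore not by itself particular to these genes.

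With 2 *osmads58* CRISPR samples the test depends on the spread shared among groups, and with 1 left out the remaining sample is assumed to vary like the others. The few counts of LOC_Os12g19470 and LOC_Os01g64960 allow no firm direction at this depth.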
